A study of Homo sapiens with 8 samples.

Results

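The 10 genes described here encode 7 subunits of the transcription factor AP-1 (FOS, FOSB, FOSL1, FOSL2, JUN, JUNB and JUND) and the products of 3 further immediate early genes (EGR1, IER2 and IER3). They were chosen by symbol, with earlier results of these data known, and matched to the Ensembl identifiers of the count tables. Shares of these genes, and of the further lists below, that are set beside shares of all genes are therefore descriptions. They are not tests of the set. All 10 were found among 64253 gene identifiers, and all 10 passed the filter on low counts that left 20305 genes for testing. RNA-seq was performed in 8 libraries of HCT-8, an established human colon cancer cell line, in 4 groups of 2 replicates. The HCT-8 group held the 5-fluorouracil (5-FU)-sensitive parental cells and the HCT-8/FU group held the 5-FU-resistant line, both in unconditioned medium. The groups named CM of HCT-8 and CM of HCT-8/FU held parental HCT-8 cells in conditioned medium (CM), which HCT-8 or HCT-8/FU cells had conditioned for 48 h. HCT-8/FU was a single resistant line bought from a supplier, and all cells were collected with trypsin-versene. The sources used here do not give how the line was selected, whether drug was present at collection or how long cells had been in CM when RNA was taken. For the maintenance medium the labels name Ham's F12, whereas the methods name RPMI.

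AP-1 is a dimer of a JUN protein with another JUN protein or with a FOS family protein, held together by a leucine zipper and bound to DNA through the adjoining basic region (bZIP). FOS, FOSB, JUN, JUNB, EGR1, IER2 and IER3 are immediate early genes, transcribed within minutes of exposure to serum, growth factors or stress without a need for new protein synthesis, mainly through ERK, JNK and p38 kinases acting on serum response factor (SRF), its ELK partners and ATF/CREB proteins. Many of their mRNAs are short-lived through AU-rich elements in the 3′ untranslated region. In colorectal cancer cells the pathway is fed by the epidermal growth factor receptor, and FOSL1 is a known product of ERK signalling.

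Promoters of 8 of the 10 genes were in the RefSeq promoter table (GRCh38.p14, 250 bases before to 50 bases after the start), which held no entry for FOSL1 and IER3. The pentamer TGACG, the core of ATF/CREB sites, was found on either strand in 8 of 8 windows and in 24.6% of the 35116 promoters of the table. CArG boxes, the sequence bound by SRF, occurred in EGR1 (2, with first bases at −105 and −83 from the start) and in 1.29% of all promoters. Boxes outside the window were not searched, so that the other genes may hold some farther upstream. TATAAA occurred in FOS, FOSB and JUNB and in 11.5% of all promoters. The AP-1 site TGACTCA was present in FOSL2, where it lay inside the transcript, and in 4.95% of all promoters, and TGACGTCA, which includes the TGACG core, was present in JUND and in 1.85%. A match of letters is a description and not evidence of binding. Shown are the 160 bases before the start, read 5′ to 3′ on the strand of the gene, of FOSB (chr19:45467836-45467995, plus strand), EGR1 (chr5:138465319-138465478, plus strand), JUN (chr1:58784048-58784207, minus strand) and FOS (chr14:75278668-75278827, plus strand), the genes of this table whose fall in HCT-8/FU held in every processing alternative. Capitals mark TGACG or its reverse complement, CArG boxes and TATAAA.
FOSB: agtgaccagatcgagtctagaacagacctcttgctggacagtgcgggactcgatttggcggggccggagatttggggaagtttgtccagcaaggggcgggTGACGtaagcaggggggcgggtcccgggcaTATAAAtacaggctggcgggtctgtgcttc
EGR1: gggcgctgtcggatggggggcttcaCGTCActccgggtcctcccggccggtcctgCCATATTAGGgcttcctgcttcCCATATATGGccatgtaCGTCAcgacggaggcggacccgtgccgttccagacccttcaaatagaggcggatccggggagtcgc
JUN: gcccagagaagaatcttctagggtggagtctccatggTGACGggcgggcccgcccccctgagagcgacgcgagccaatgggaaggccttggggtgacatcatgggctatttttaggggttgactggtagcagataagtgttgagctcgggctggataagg
FOS: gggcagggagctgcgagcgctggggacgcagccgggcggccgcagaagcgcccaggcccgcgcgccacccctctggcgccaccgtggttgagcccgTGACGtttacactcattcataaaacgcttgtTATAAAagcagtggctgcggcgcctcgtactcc

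HCT-8 replicate 1, HCT-8/FU replicate 2 and CM of HCT-8 replicate 1 had 20% to 29.6% of records not aligned and 5804124 to 9350753 gene counts, against 3.58% to 4.43% and 26709802 to 34881349 gene counts in the other 5 libraries. All 9 colon epithelial markers averaged over 1 CPM (gene counts scaled to a common library total), and their summed level was 9520 to 11800 CPM. Markers of other cell types were low, at summed levels of 12.5 to 22.3 CPM for fibroblasts (2 of 6 genes over 1 CPM, COL1A1 and PDGFRB, with COL1A2 at 0), 1.27 to 2.45 CPM for endothelium (1 of 3, PECAM1) and 0.658 to 1.84 CPM for leukocytes (0 of 5, with PTPRC and CD3E at 0). Each value below is a level in CPM after TMM scaling of library sizes unless said otherwise, and means are given ± SD with n = 2. In such bulk samples, fewer expressing cells and less RNA per cell cannot be told apart. The labels do not say whether replicates came from separate cultures, so that p-values measure the spread between these samples, which may be technical.

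Levels of the 10 genes differed widely. Per kilobase of exon, IER3 was the most abundant transcript in all 4 groups (127 to 192 CPM per kb), followed by JUND (32.1 to 54 CPM per kb), whereas FOSB was the least abundant (0.261 to 1.38 CPM per kb). In HCT-8/FU all 10 genes had their lowest group mean, and in HCT-8 7 of them had their highest. The same 7 genes (FOS, FOSB, FOSL1, JUN, EGR1, IER2 and IER3) were highest in HCT-8, next in cells in their own CM, next in cells in CM of the resistant line and lowest in HCT-8/FU. The share of all genes with such orders was not counted, and these levels are not corrected for GC content (below). With that correction, HCT-8/FU was not lowest for JUNB, IER3 and IER2. Their log2 fold changes against CM of HCT-8/FU were 0.14, 0.05 and 0.04, while the remaining genes stayed below zero.

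**Figure D1:**
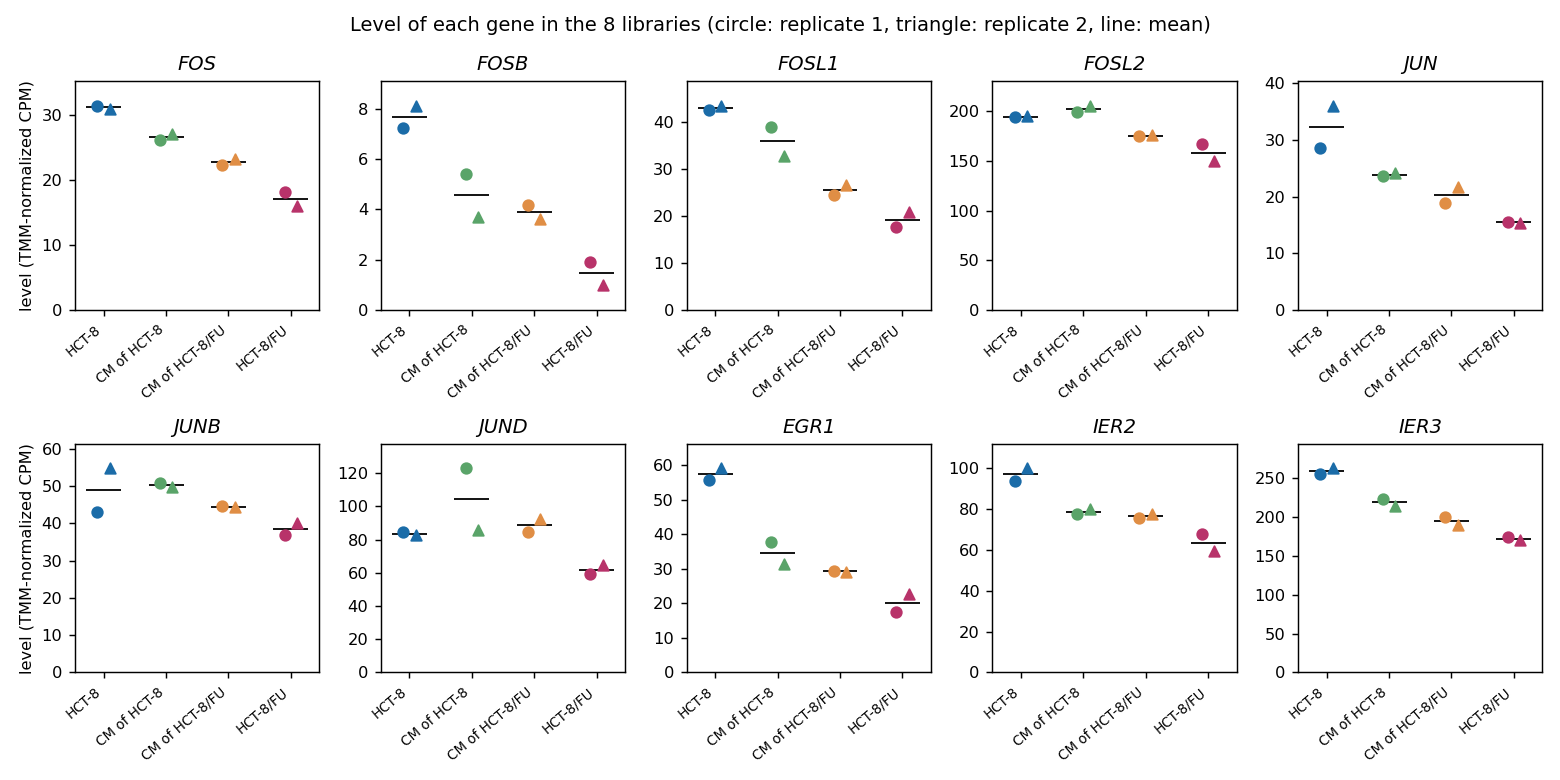
Level of each gene in TMM-normalized CPM (linear axis from 0, with its own scale in each panel) in the 4 groups, with a circle for replicate 1, a triangle for replicate 2 and a line at the mean. The HCT-8/FU pair sits below the HCT-8 pair in all 10 panels, from 1.45 against 7.69 CPM on average for FOSB to 159 against 195 CPM for FOSL2.

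The first comparison, of HCT-8/FU against HCT-8, asks how the resistant line differs from its parent. Expression of 7 of the 10 genes fell in HCT-8/FU, which were FOSB, EGR1, FOSL1, JUN, FOS, IER2 and IER3, and none rose. A gene was called when the adjusted p of edgeR's quasi-likelihood test (Benjamini-Hochberg over all genes tested) was at most 0.05 and the absolute log2 fold change at least 0.58, a 1.5-fold change. Among all 20305 genes, 8.12% were called lower in the same comparison. The remaining FOSL2, JUND and JUNB also passed the adjusted p at a smaller change, giving 10 of 10 genes below zero at this p against 18.1% of all genes. The median log2 fold change was −0.72 for the 10 genes and 0.0082 for all genes. The HCT-8/FU libraries lay below the HCT-8 libraries without overlap in 10 of 10 genes, a separation that 32.3% of all genes showed.

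Within the FOS family, FOSB had the largest fold change. This gene (chr19:45467995-45475179, plus strand), whose product is a JUN partner known for long-lived splice forms, stood at 7.24 and 8.13 CPM in HCT-8 and at 1.89 and 1 CPM in HCT-8/FU. The HCT-8/FU replicates rested on 57 and 6 raw counts, for which the exact (Clopper-Pearson) 95% binomial intervals, covering counting error only, were 1.52 to 2.6 and 0.379 to 2.25 CPM before TMM scaling. Even the upper bounds were below the lower bounds in HCT-8 (5.14 and 6.98). FOSB fell by 2.22 on the log2 scale (SE 0.303, adjusted p = 3.4e-05), a 4.67-fold difference. Without HCT-8/FU replicate 1 its log2 fold change was −2.96, which leaves the library with 6 counts. Without HCT-8/FU replicate 2 it was −2.04.

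FOSL1 (FRA-1; chr11:65892049-65900573, minus strand), a FOS-related subunit without a transactivation domain that accumulates under ERK signalling, was at 42.5 and 43.4 CPM in HCT-8 and at 17.6 and 20.7 CPM in HCT-8/FU. It fell by 1.2 on the log2 scale (SE 0.124, adjusted p = 2.5e-06). FOS itself (chr14:75278826-75282230, plus strand) was at 31.5 and 31 CPM in HCT-8 and at 18.1 and 16 CPM in HCT-8/FU, and fell by 0.84 (SE 0.116, adjusted p = 3.7e-05). In both genes the gap between the groups was several times the gap between replicates. FOSL2 (FRA-2; chr2:28392448-28417317, plus strand) was the most abundant of the family, at 27.2 CPM per kb in HCT-8, and changed least. Its levels of 194 and 195 CPM in HCT-8 and 167 and 150 CPM in HCT-8/FU gave a log2 fold change of −0.29 (SE 0.0748, adjusted p = 0.0069), which missed the fold threshold.

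The JUN family split in the same way. JUN (chr1:58776845-58784048, minus strand), a strong transactivator among AP-1 subunits, was at 28.6 and 36.1 CPM in HCT-8 and at 15.5 and 15.4 CPM in HCT-8/FU, and fell by 1.09 on the log2 scale (SE 0.138, adjusted p = 1.7e-05). JUNB (chr19:12791486-12793315, plus strand), which can counter JUN, was at 43.1 and 54.8 CPM in HCT-8 and at 36.8 and 40.1 CPM in HCT-8/FU. Its HCT-8 replicates lay farther apart than the group means did, and the log2 fold change was −0.39 (SE 0.113, adjusted p = 0.014). JUND (chr19:18279694-18281622, minus strand), the subunit that is expressed most constantly, was at 84.5 and 82.8 CPM in HCT-8 and at 59.1 and 64.7 CPM in HCT-8/FU, a log2 fold change of −0.45 (SE 0.132, adjusted p = 0.015). Neither JUNB nor JUND reached the fold threshold.

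Among the other immediate early genes, EGR1 (chr5:138465479-138469303, plus strand), a zinc-finger factor induced through SRF, had the lowest adjusted p of the 10. Its levels were 55.7 and 59.1 CPM in HCT-8 against 17.6 and 22.7 CPM in HCT-8/FU, and it fell by 1.57 on the log2 scale (SE 0.129, adjusted p = 2.9e-07), a 2.98-fold difference. IER3 (chr6:30743199-30744548, minus strand), a stress-inducible regulator of ERK signalling and cell survival, was at 255 and 263 CPM in HCT-8 and at 174 and 170 CPM in HCT-8/FU. It fell by 0.59 (SE 0.0708, adjusted p = 9.9e-06). IER2 (chr19:13150411-13154911, plus strand), a nuclear protein of the same response, was at 93.6 and 99.7 CPM against 67.4 and 59.3 CPM, and fell by 0.6 (SE 0.0873, adjusted p = 6.5e-05). The calls of IER2 and IER3 lay at the edge of the fold threshold, and each was lost under several alternatives. IER2 was not called without HCT-8/FU replicate 2 (−0.53) or without HCT-8 replicate 2 (−0.58), and further values stand beside the GC content. Exons of these genes overlap genes on the opposite strand over 30.7% of IER2 (ENSG00000267598), 32.6% of IER3 (IER3-AS1) and 14.2% of JUNB (HOOK2). The sources used here do not say whether reads were counted by strand, so that reads of both strands may not be separated there.

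**Figure D2:**
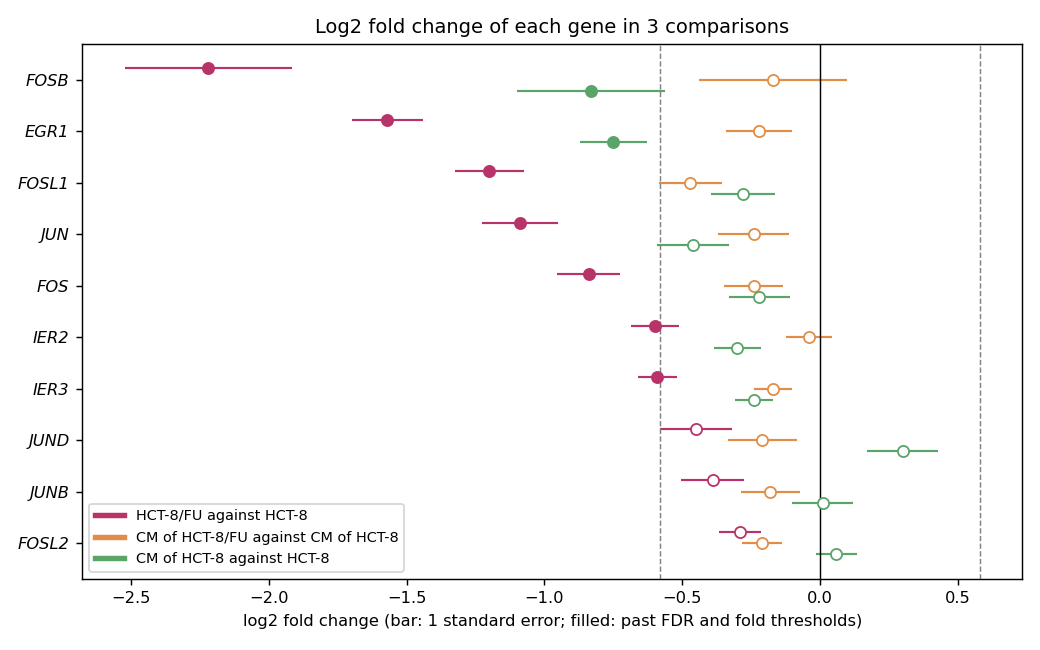
Log2 fold change of the 10 genes (rows, ordered by the fall in HCT-8/FU) in 3 comparisons, with bars of 1 standard error, dashed lines at −0.58 and 0.58, and filled points for genes past both thresholds. HCT-8/FU against HCT-8 has 7 filled points between −2.22 and −0.59, CM of HCT-8 against HCT-8 has 2, and the comparison between the CM groups has 0.

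GC content moved with this comparison across the whole transcriptome. Over 19857 genes, the log2 fold change of HCT-8/FU against HCT-8 had a Spearman correlation of −0.397 with exonic GC content, as a description across genes of the same 8 libraries. The 10 genes hold 53.4% to 69.9% GC, above the median of 49% of the genes tested. In steps of 4 percentage points from 50% to 70%, the median log2 fold change of all genes with a mean log2 CPM above 1 was −0.19, −0.22, −0.28, −0.28 and −0.26. FOSB, EGR1, FOSL1, JUN and FOS lay below the median of their own step by more than 0.58, whereas FOSL2, JUND and JUNB lay within 0.2 of theirs. When a smooth dependence on GC content and length was subtracted in each library, 5 of the 10 genes were called, with log2 fold changes of −2.03 for FOSB, −1.39 for EGR1, −0.99 for FOSL1, −0.91 for JUN and −0.7 for FOS. Of all 19857 genes in that fit, 1600 were called lower. Under this correction IER3 and IER2 were at −0.39 and −0.36, JUND at −0.38, JUNB at −0.19 and FOSL2 at −0.18, and none of these was called. The part of GC content in the result was not tested further. With CM of HCT-8 replicate 2 as the reference of the TMM scaling, IER3 and IER2 were at −0.5 and −0.51 and likewise not called.

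**Figure D3:**
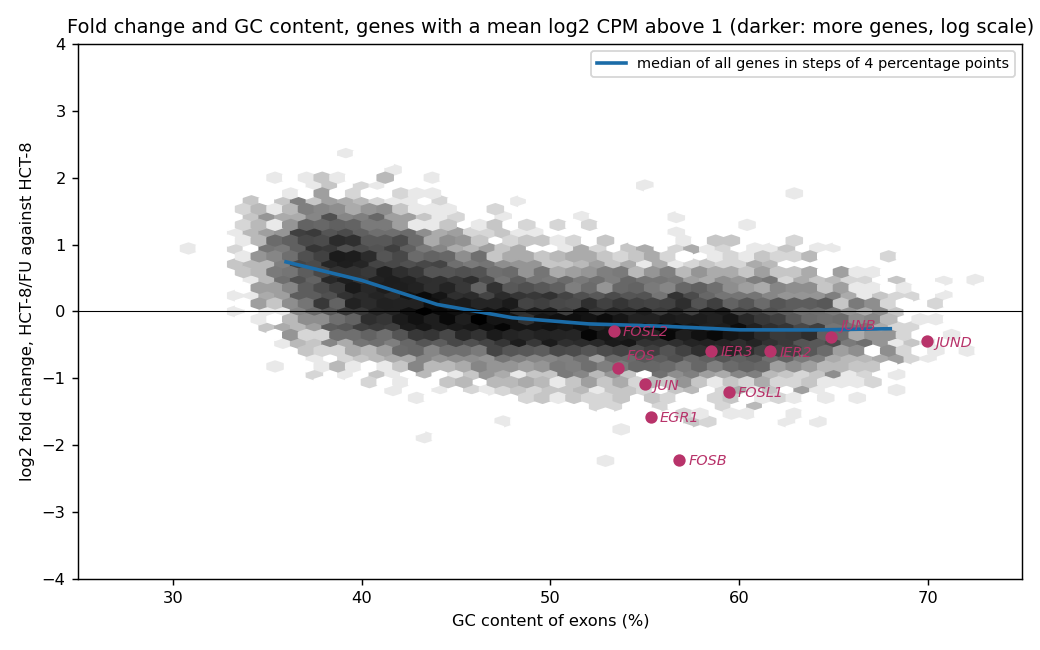
Log2 fold change of HCT-8/FU against HCT-8 (vertical axis) against exonic GC content in percent (horizontal axis) for all genes with a mean log2 CPM above 1 (grey, darker for more genes on a log scale), the median in steps of 4 percentage points (line) and the 10 genes (points). The line runs from 0.74 at the lowest GC content to −0.26 at the highest, and FOSB at −2.22 and EGR1 at −1.57 lie far under it.

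In each of these groups 1 library had over 15% of records not aligned, so that the difference could be read within each kind. Between the libraries over 15% the log2 difference was −2.74 for FOSB, −1.29 for EGR1, −1.03 for FOSL1, −0.97 for FOS and −0.89 for JUN. Between the others it was −2.05, −1.74, −1.3, −0.77 and −1.22 in the same order. Thus the direction was shared by both kinds of library. It was shared as well for FOSL2, JUNB, JUND, IER2 and IER3, where the 2 values ranged from −0.66 to −0.1. A fit of the 5 libraries under 15% alone leaves 1 library in each of these groups. Its spread comes only from the 2 libraries in CM of the resistant line. The log2 fold change there was −0.58 for JUNB and −0.57 for IER2.

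**Figure D4:**
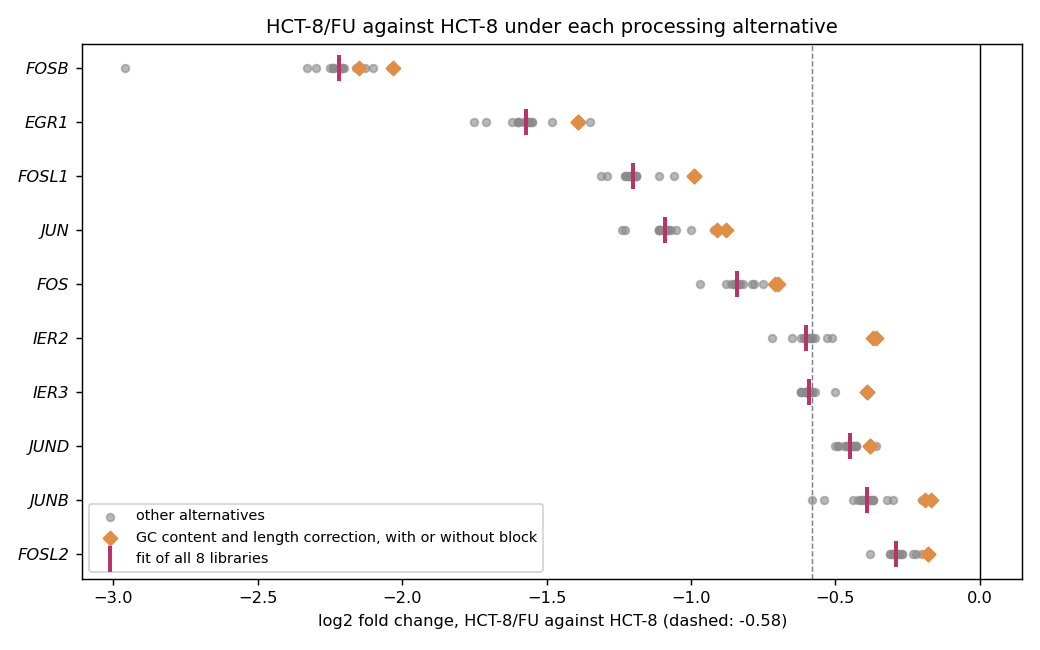
Log2 fold change of HCT-8/FU against HCT-8 for each gene under every processing alternative (grey circles), corrected for GC content and length (diamonds) and in the fit of all 8 libraries (vertical mark), with a dashed line at −0.58. All values lie below 0, those of FOSB, EGR1, FOSL1, JUN and FOS lie beyond −0.58, and those of IER2 and IER3 fall on both sides of it.

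The comparison between the CM groups asks what medium of resistant cells does to sensitive cells beyond what medium of sensitive cells does. Of the 10 genes 0 were called lower, where 1.28% of all genes were, and 0 were called higher, where 7.97% were. At an unadjusted p of edgeR's test under 0.05 there were 4 genes (FOSL1, FOSL2, IER3 and FOS). The share of all genes at that p was not counted, so that this number has no measure beside it. DESeq2 also called 0. FOSL1 was at 38.9 and 32.7 CPM in CM of HCT-8 and at 24.3 and 26.6 CPM in CM of HCT-8/FU, and passed the adjusted p at a log2 fold change of −0.47 (SE 0.115, adjusted p = 0.0086). It was the 1 gene of 10 that passed, against 8.49% of all genes below zero, and it was called at −0.61 without CM of HCT-8 replicate 2. Its pass was lost after subtraction of the dependence on GC content and length (−0.33, adjusted p = 0.19), in the fit of these groups alone (−0.38, adjusted p = 0.056) and without replicate 1 in CM of the resistant line (−0.41, adjusted p = 0.13). The other 9 genes had log2 fold changes from −0.24 to −0.04 and adjusted p of 0.055 to 0.8. EGR1 was at 37.9 and 31.4 CPM in CM of HCT-8 and at 29.4 and 29.1 CPM in CM of HCT-8/FU, a log2 fold change of −0.22 (SE 0.12, adjusted p = 0.22). FOSB was at 5.41 and 3.69 CPM and at 4.17 and 3.6 CPM, a log2 fold change of −0.17 (SE 0.268, adjusted p = 0.72), and its groups overlapped. The signs of all 10 were negative, and the median was −0.21 beside −0.059 for all genes. In 7 of the 10 genes the groups did not overlap, a separation that 34.5% of all genes showed in this direction. The log2 fold change had a Spearman correlation of −0.398 with GC content here too. Both libraries in CM of the resistant line had under 15% of records not aligned, and against CM of HCT-8 replicate 2 alone the log2 differences were −0.36 for FOSL1, 0.07 for FOSB and 0.05 for JUND.

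The comparison of CM of HCT-8 with HCT-8 shares the HCT-8 libraries with the comparison of the lines. It sets cells in their own CM against cells in unconditioned medium. Any differences in culture or library between these groups cannot be told apart from the medium. EGR1 and FOSB fell, where 4.29% of all genes were called lower. EGR1 was at 55.7 and 59.1 CPM in HCT-8 and at 37.9 and 31.4 CPM in CM of HCT-8, and fell by 0.75 on the log2 scale (SE 0.121, adjusted p = 0.00051). FOSB went from 7.24 and 8.13 CPM to 5.41 and 3.69 CPM and fell by 0.83 (SE 0.269, adjusted p = 0.042). The EGR1 call held in every alternative, between −0.91 and −0.61. The FOSB call was near the threshold and was lost in DESeq2 (adjusted p = 0.053), in the fit of these groups alone (adjusted p = 0.067), without HCT-8 replicate 1 (adjusted p = 0.088) or 2 (0.21), without replicate 2 in the cells' own CM (0.29), and without either replicate in CM of the resistant line (0.082 and 0.078), which enter through the shared estimate of the spread. JUN at −0.46 (SE 0.131, adjusted p = 0.022), IER2 at −0.3 (SE 0.0855, adjusted p = 0.022) and IER3 at −0.24 (SE 0.0698, adjusted p = 0.024) passed the adjusted p at a smaller change, giving 5 of 10 genes below zero against 10.4% of all genes. FOS and FOSL1 had log2 fold changes of −0.22 and −0.28 (adjusted p of 0.19 and 0.11). FOSL2, JUNB and JUND were at 0.06, 0.01 and 0.3 (adjusted p of 0.64, 0.96 and 0.12). JUND stood out for a replicate spread, with 123 CPM in replicate 1 of CM of HCT-8 and 85.6 CPM in replicate 2, against 84.5 and 82.8 CPM in HCT-8. Of the 10 genes 7 were lower and 2 higher without overlap of the groups, against 27.1% and 27.2% of all genes. The Spearman correlation with GC content had the opposite sign here, at 0.301, and after correction for GC content and length EGR1 stood at −0.88 and FOSB at −0.92.

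The change between the lines and the change between the CM groups were also compared in 1 contrast, the log2 fold change of HCT-8/FU over HCT-8 minus that between the CM groups. This difference was below zero past the adjusted p in 7 of the 10 genes, where 6.42% of all genes were, and above zero in none. It was −2.05 for FOSB (SE 0.405, adjusted p = 0.0037) and −1.35 for EGR1 (SE 0.176, adjusted p = 0.00016), the pair that passed in every alternative. JUN was at −0.85 (SE 0.189, adjusted p = 0.0083), FOSL1 at −0.73 (SE 0.169, adjusted p = 0.01), FOS at −0.61 (SE 0.158, adjusted p = 0.021), IER2 at −0.56 (SE 0.121, adjusted p = 0.0072) and IER3 at −0.42 (SE 0.0989, adjusted p = 0.011). FOSL2, JUND and JUNB were at −0.07, −0.23 and −0.21 (adjusted p of 0.73, 0.5 and 0.46). The median was −0.58 for the 10 genes and 0.014 for all genes. After subtraction of the dependence on GC content and length, 5 of the 10 passed, at −1.98 for FOSB, −1.32 for EGR1, −0.82 for JUN, −0.61 for FOS and −0.47 for IER2. Of all 19857 genes in that fit, 895 passed below zero. Without replicate 2 in CM of the resistant line, 4 passed, which were FOSB, EGR1, IER2 and IER3.

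Relative to unconditioned HCT-8, the cells given CM of HCT-8/FU had 4 of the 10 genes called lower, where 3.28% of all genes were. These were FOSB (−1, SE 0.254, adjusted p = 0.0094), EGR1 (−0.98, SE 0.117, adjusted p = 3.3e-05), FOSL1 (−0.76, SE 0.113, adjusted p = 2e-04) and JUN (−0.7, SE 0.126, adjusted p = 0.00085). The FOSB call was lost without HCT-8 replicate 2 (adjusted p = 0.12) and without replicate 1 or 2 in CM of the resistant line (0.057 and 0.12), and the JUN call without HCT-8 replicate 2 (−0.51, adjusted p = 0.051). HCT-8/FU was lower than the parental cells given its CM for EGR1 (−0.6, SE 0.128, adjusted p = 0.0081) and FOSB (−1.22, SE 0.302, adjusted p = 0.016), 2 of 10 genes where 1.75% of all genes were called lower. After subtraction of the dependence on GC content and length neither was called, with EGR1 at −0.43 (adjusted p = 0.3) and FOSB at −1.06 (adjusted p = 0.19). EGR1 was not called either with DESeq2 (−0.56) or its size factors (−0.57), without HCT-8/FU replicate 1 (−0.37, adjusted p = 0.19) or without replicate 1 or 2 in CM of the resistant line (adjusted p of 0.067 and 0.059). FOSB was not called without HCT-8/FU replicate 1 or 2 (adjusted p of 0.052 and 0.073) or without replicate 1 or 2 in CM of the resistant line (0.13 and 0.066). Medium and cell line both differ in the latter comparison and cannot be told apart.

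The order of the 4 groups gave 30 pairs of neighbours over the 10 genes. Of these, 11 passed the adjusted p and 4 were called, against 11.7% and 3.57% of the neighbours of all genes. The 4 were HCT-8 above CM of HCT-8 and CM of HCT-8/FU above HCT-8/FU, each for FOSB and EGR1, and the latter pair of calls is the one lost after subtraction of the dependence on GC content and length. For these genes the means fell from 7.69 ± 0.629 to 4.55 ± 1.21, 3.88 ± 0.403 and 1.45 ± 0.63 CPM and from 57.4 ± 2.41 to 34.6 ± 4.56, 29.3 ± 0.204 and 20.2 ± 3.62 CPM (SD, n = 2), and the CM groups in the middle did not pass the adjusted p. For FOSB the CM libraries overlapped, whereas for EGR1 they did not. FOSL1 went from 43 ± 0.642 to 35.8 ± 4.41, 25.5 ± 1.64 and 19.2 ± 2.2 CPM, where the last pairs of neighbours passed the adjusted p (0.0086 and 0.027) and the first pair had an adjusted p of 0.11. JUN went from 32.3 ± 5.35 to 23.9 ± 0.443, 20.2 ± 2.1 and 15.4 ± 0.0771 CPM, and its first pair of neighbours passed (adjusted p = 0.022). FOS went from 31.2 ± 0.34 to 26.7 ± 0.622, 22.7 ± 0.657 and 17.1 ± 1.46 CPM, and its last pair passed (adjusted p = 0.037). IER3, from 259 ± 5.19 to 172 ± 2.75 CPM, and IER2, from 96.6 ± 4.31 to 63.4 ± 5.7 CPM, had their first pair past the adjusted p (0.024 and 0.022). FOSL2 and JUNB had no neighbours past the adjusted p, and in both CM of HCT-8 was highest. JUND had the order CM of HCT-8 (104 ± 26.4 CPM), CM of HCT-8/FU (88.6 ± 5.25), HCT-8 (83.7 ± 1.19) and HCT-8/FU (61.9 ± 3.93), and the last pair passed (adjusted p = 0.015).

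Other genes of the pathway were read from lists by role, in the fit without correction for GC content. With that correction, genes called higher over all genes numbered 1444 rather than 2677 in HCT-8/FU. Between the CM groups they numbered 526 rather than 1619. The part of GC content in the lists was not tested. Of 9 tested genes for further AP-1 and bZIP factors, 5 fell and 1 rose in HCT-8/FU, where 8.12% of all genes were called lower and 13.2% higher, and the median log2 fold change was −0.93. ATF3, a stress-induced bZIP factor that pairs with JUN proteins, was at 67.8 and 65.2 CPM in HCT-8 and at 7.78 and 6.52 CPM in HCT-8/FU and fell by 3.16 on the log2 scale (SE 0.139, adjusted p = 1.5e-09). It was at 17.7 and 16.6 CPM in CM of HCT-8 and fell there by 1.96 against HCT-8 (SE 0.124, adjusted p = 4.3e-07), 1 of 9 genes called lower in that comparison. JDP2, a repressive JUN partner, fell by 1.01 in HCT-8/FU (SE 0.0962, adjusted p = 1.2e-06). ATF2, the partner of JUN at TGACGTCA-like sites, rose by 0.8 in cells given CM of the resistant line over those given their own (SE 0.105, adjusted p = 6.4e-05), where it was the 1 gene of the list that was called. BATF, BATF3 and MAF had too few counts to be tested.

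Of 25 further immediate early genes tested, 7 fell and 1 rose in HCT-8/FU, against 8.12% and 13.2% of all genes, with a median of −0.35. PPP1R15A (GADD34), which directs the dephosphorylation of the translation factor eIF2α, was at 617 and 614 CPM in HCT-8 and at 153 and 140 CPM in HCT-8/FU, and fell by 2.07 (SE 0.0849, adjusted p = 7.3e-10). It also fell by 1.06 in CM of HCT-8 against HCT-8 (SE 0.0814, adjusted p = 1.5e-06). ZFP36, which encodes the AU-rich element binding protein tristetraprolin, fell by 1.32 in HCT-8/FU (SE 0.134, adjusted p = 2.1e-06). IER5L, related to the chaperone regulator IER5, rose by 0.9 in CM of HCT-8 against HCT-8 (SE 0.163, adjusted p = 0.0013), 1 of 2 genes called higher beside 2 called lower there, against 3.86% and 4.29% of all genes. Between the CM groups 0 of the 25 genes were called by edgeR's test, where 3 passed the adjusted p with lower values, against 8.49% of all genes. EGR4 was not tested.

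Upstream, the list of kinases and SRF partners was mixed. Of 22 genes, 6 rose and 4 fell in HCT-8/FU, against 13.2% and 8.12% of all genes, with a median of −0.08. Between the CM groups 5 rose and 0 fell, against 7.97% and 1.28% of all genes, without correction for GC content. ELK4, an SRF partner of the ETS family, rose by 1.19 in HCT-8/FU (SE 0.0926, adjusted p = 1.9e-07) and by 0.93 between the CM groups in the same direction (SE 0.0913, adjusted p = 4.6e-06). RPS6KA3, which encodes the ERK-activated kinase RSK2, rose by 0.84 between the CM groups (SE 0.104, adjusted p = 3.6e-05). In CM of HCT-8 against HCT-8, 0 of the 22 genes were called by edgeR's test, where 1 passed the adjusted p above zero and 2 below. Of 15 genes of ERK feedback and output, 3 fell and 1 rose in HCT-8/FU, against 8.12% and 13.2% of all genes, with a median of −0.33. DUSP5, a nuclear ERK phosphatase, was at 162 and 167 CPM in HCT-8, 113 and 107 CPM in CM of HCT-8, 108 and 107 CPM in CM of HCT-8/FU and 64.6 and 59.2 CPM in HCT-8/FU. It fell by 1.4 in HCT-8/FU (SE 0.0802, adjusted p = 1.4e-08) and by 0.59 in CM of HCT-8 (SE 0.0767, adjusted p = 0.00011) against HCT-8. SPRED1, an inhibitor of RAF activation, rose by 0.71 in HCT-8/FU (SE 0.0778, adjusted p = 4.5e-06).

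Among AP-1 target genes, 14 of 18 were tested, and 6 fell and 2 rose in HCT-8/FU, against 8.12% and 13.2% of all genes, with a median of −0.39. The collagenases MMP1 and MMP13, whose promoters carry well-known AP-1 sites, both fell. MMP1 fell by 1.89 (SE 0.359, adjusted p = 0.00065), and MMP13 fell by 1.87 (SE 0.175, adjusted p = 9.8e-07). MMP13 was at 28.8 and 26.7 CPM in HCT-8 and at 8.51 and 5.35 CPM in HCT-8/FU, and MMP1 was low throughout, at 5.13 and 3.96 CPM against 1.2 and 1.17 CPM. In CM of HCT-8 against HCT-8, 2 fell and 1 rose, against 4.29% and 3.86% of all genes. MMP13 fell by 0.83 (SE 0.161, adjusted p = 0.0021), and the adhesion receptor CD44 rose by 0.83 (SE 0.242, adjusted p = 0.026). Between the CM groups TIMP1, an inhibitor of matrix metalloproteinases, fell by 0.64 (SE 0.125, adjusted p = 0.0019), and HMGA2, a chromatin architectural protein, rose by 0.6 (SE 0.126, adjusted p = 0.0034). Levels of HMGA2 and CD44 were higher in HCT-8/FU than in HCT-8, unlike those of MMP1 and MMP13. HMGA2 was at 31.2 and 28.7 CPM against 10.3 and 11.3 CPM, and CD44 at 10.3 and 9.03 CPM against 5.79 and 4.17 CPM. MMP3, MMP7, MMP9 and MMP10 had too few counts to be tested.

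The mRNAs of the 10 genes differ in AU-rich pentamers. In the 3′ untranslated region of the annotated transcript, ATTTA occurred 8.11 times per kb in IER3 and 6.18 times per kb in FOS, against a median of 1.63 per kb over 18531 genes, while IER2 had none. FOSB (1.38 per kb) and EGR1 (0.816 per kb) were below that median. The longer TATTTAT occurred in FOS, FOSB, FOSL1, FOSL2, JUN, JUND and IER3, and in 33.1% of the 18531 genes. It was absent from JUNB, EGR1 and IER2. A part of mRNA decay in the falls was not tested. Among 9 factors of AU-rich mRNA decay, XRN1, the 5′ to 3′ exonuclease, rose by 1.21 in HCT-8/FU (SE 0.0933, adjusted p = 1.7e-07) and by 1.62 between the CM groups, higher in CM of the resistant line (SE 0.0978, adjusted p = 3.9e-07), and fell by 1.04 in CM of HCT-8 against HCT-8 (SE 0.102, adjusted p = 9.8e-06). ZFP36L1, a relative of tristetraprolin, fell by 0.6 in HCT-8/FU (SE 0.0917, adjusted p = 1e-04). The other 7 genes were not called in this comparison, and the median of the list was 0.06. Thus 1 of the 9 rose and 1 fell in HCT-8/FU, against 13.2% and 8.12% of all genes, without correction for GC content. XRN1 was the 1 gene of the list called between the CM groups, where 7.97% of all genes were called higher. It was also the 1 called in CM of HCT-8 against HCT-8, where 4.29% of all genes were called lower.

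**Figure D5:**
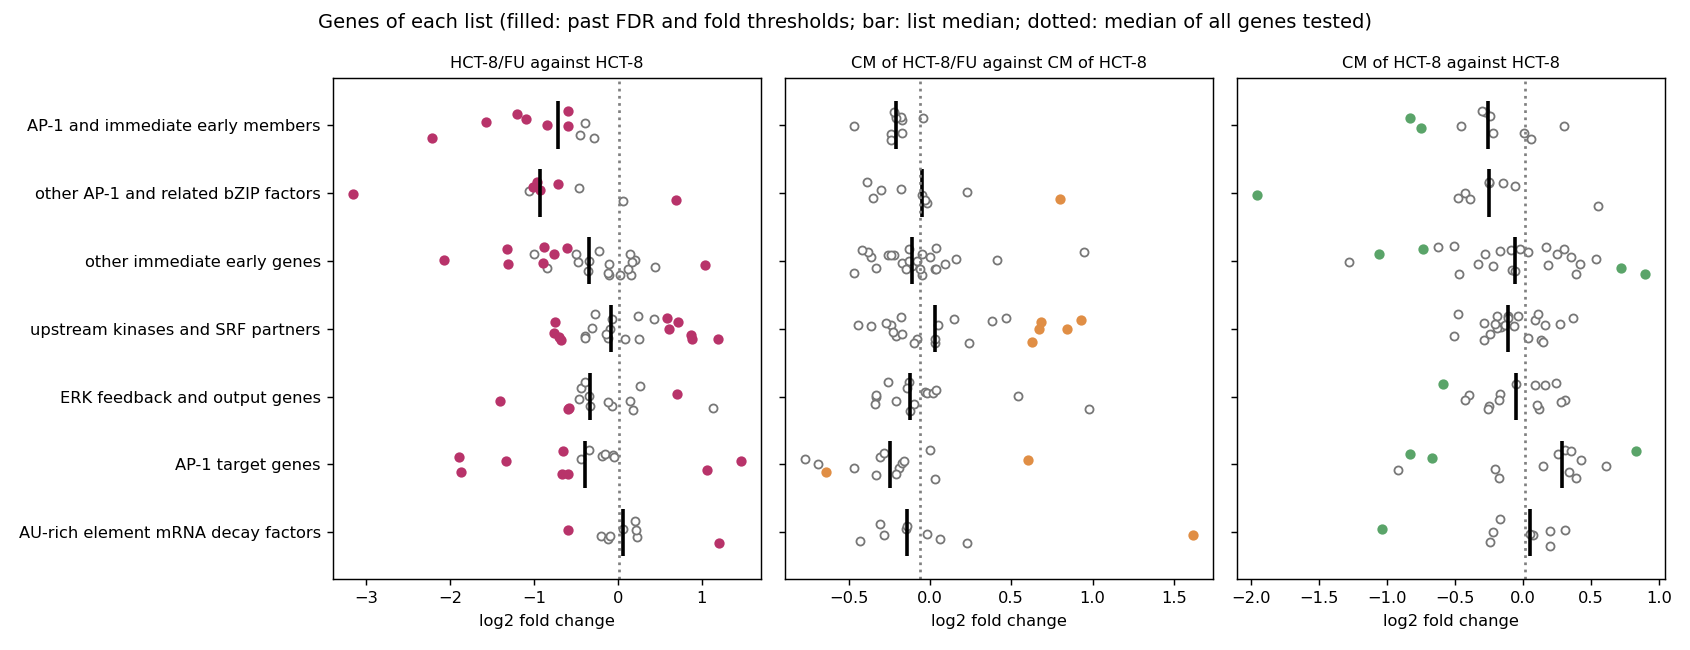
Log2 fold change of each gene of the 7 lists (rows) in 3 comparisons (panels), with filled points for genes past both thresholds, a bar at the median of the list and a dotted line at the median of all genes tested. In HCT-8/FU against HCT-8 the medians of the 10 genes (−0.72) and of the other AP-1 and bZIP factors (−0.93) are the farthest left, and between the CM groups all 10 genes are open points.

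The genes most like each of the 10 across the 8 libraries were those with the smallest root mean square difference of centred log2 CPM, among 11695 or 11696 named genes that averaged 5 CPM or more. For FOSB they were MMP13 (0.223), DDIT3 (0.247) and HMOX1 (0.268), beside a median of 0.903 over all candidates. EGR1 was nearest to ARHGEF2 (0.121), with a median of 0.567. FOSL1 was nearest to SSR2 (0.0773), JUN to FLYWCH1 (0.0797), FOS to KLC2 (0.0362), IER3 to SOCS7 (0.0301) and IER2 to the antisense RNA MED8-AS1 (0.0385). FOSL2 was nearest to TRAPPC4 (0.0265), JUNB to FAM193B (0.0453) and JUND to PCGF2 (0.0729). None of the 10 genes was among the 3 nearest of another.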

How the data were processed

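RNA-seq libraries of 4 groups with 2 replicates each were used as mapped by the labels. The authors aligned paired 150-base reads to GRCh38 with HISAT2, sorted them with SAMtools 1.18 and deposited raw counts per Ensembl gene from HTSeq 0.11.2. They also deposited 2 tables of their own DESeq2 1.30.0 comparisons (mean, log2 fold change, SE, statistic, p-values), which were not used. Records naming no gene were left out of library sizes. They were 33.7% to 49.6% without a feature, 3.58% to 29.6% not aligned, 2.2% to 5.77% of low quality, 2.24% to 3.48% not unique and 1.15% to 1.57% ambiguous.

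Counts were filtered with filterByExpr, scaled by TMM and tested with edgeR 4.0.16 (R 4.3.3; quasi-likelihood test, 1 fit of 4 group means), with Benjamini-Hochberg adjustment over all genes tested and the thresholds 0.05 and 0.58 (log2). The SE is the absolute log2 fold change over the square root of F. Symbols, exonic length and GC content were from GENCODE 44. All 10 members were named, with the 2 called genes of largest absolute change per further list and comparison, and the 3 most alike genes per member; some genes that these rules name are not reported here. Members and lists were chosen with earlier results of these data known. On data simulated for HCT-8/FU against HCT-8 (19793 genes, 200 changed), the test recovered 58% of 2-fold and 72% of 2.8-fold changes with 4 false calls. With a GC trend added to the simulation it made 646 false calls, and 8 once the trend was corrected. Replicates of each group differed by more than sampling noise. Alternatives were DESeq2 1.42.0 or its size factors, another TMM reference, other filters, only the groups compared, a replicate block, a correction for GC content and length (spline, 5 degrees of freedom), a term for or the omission of libraries with over 15% of records not aligned, no fold threshold, and each library left out.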

Additional observations from a re-analysis of the deposited data

Results flagged for a closer look

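A difference between contrasts drew attention to 7 of the 10 genes. In each, the log2 fold change of HCT-8/FU over HCT-8 minus the log2 fold change between the CM groups was below zero past the adjusted p of edgeR's quasi-likelihood test. EGR1 fell by 1.57 on the log2 scale between the lines and was at −0.22 between the CM groups, a difference of −1.35 (adjusted p = 0.00016). FOSB was at −2.22 and −0.17, a difference of −2.05 (adjusted p = 0.0037). JUN had a difference of −0.85 (adjusted p = 0.0083), FOSL1 of −0.73 (adjusted p = 0.01) and FOS of −0.61 (adjusted p = 0.021). IER2 had a difference of −0.56 (adjusted p = 0.0072) and IER3 of −0.42 (adjusted p = 0.011). Of all genes 6.42% were below zero past the same adjusted p. After subtraction of the dependence on GC content and length, FOSL1 and IER3 no longer passed. Only EGR1 and FOSB passed in every alternative.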

How the results depend on the processing

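With 2 replicates per group the spread is poorly known, FOSB rests on 6 counts in the shallowest library, and the libraries with over 15% not aligned are also the shallowest. Where a fit leaves a group with 1 library, that library is assumed to vary like the other groups. In HCT-8/FU against HCT-8, 7 genes were called and 5 to 7 under the alternatives (10 without the fold threshold), with no sign turned. Without 1 library the counts ran from 6 to 7 in that comparison, from 0 to 1 between the CM groups (0 with all libraries), from 1 to 2 in CM of HCT-8 against HCT-8 (2), from 4 to 8 for the difference between both changes (7), and from 1 to 4 for neighbours in the group order (4). The 1 gene between the CM groups was FOSL1, without CM of HCT-8 replicate 2. The low of 4 in the difference came without replicate 2 in CM of HCT-8/FU. The group order gave 2 without HCT-8/FU replicate 1 and 1 without either replicate in CM of HCT-8/FU. With no fold threshold the counts were 1 between the CM groups, 5 in CM of HCT-8 against HCT-8, with 11 in the order. DESeq2, and the fit of the groups compared, gave 1 in CM of HCT-8 against HCT-8. Correction for GC content and length gave 3 there. DESeq2 gave no adjusted p for FOSB in HCT-8/FU set against cells in its CM, and no count for the order.

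Same-numbered libraries had correlations of deviations from −0.123 to 0.132, which cannot tell whether the replicate numbers pair the samples. The library with over 15% of records not aligned was replicate 1 in HCT-8 and CM of HCT-8 but replicate 2 in HCT-8/FU. With the replicate block the counts stayed at 7, 0, 2, 7 and 4, and the log2 fold change of FOSB in HCT-8/FU was −2.33. With the block and the GC correction together, 4 genes passed for the difference and 2 neighbours in the order.

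Of all values under the alternatives, 31 changed sign, 50 lost and 9 gained the threshold, and 1039 did neither. The cause was not tested. Between the CM groups, FOSB was at 0.07 and JUND at 0.05 with the libraries under 15% not aligned and without CM of HCT-8 replicate 1, and both at −0.47 without its replicate 2. IER2 was at 0.05 with the other TMM reference and with the groups compared, 0.11 with the GC correction with or without the block, and −0.06 to 0.02 with 1 library left out, the latter without HCT-8 replicate 2. In CM of HCT-8 against HCT-8, JUNB was at −0.04 with DESeq2 size factors, −0.01 with no filter, −0.03 in DESeq2, −0.22 and −0.21 with the GC correction without and with the block, −0.14 in the libraries under 15%, and from −0.13 without HCT-8 replicate 1 to 0.15 without HCT-8 replicate 2, with −0.01 when replicate 1 of the CM group was left out. JUND was at −0.01 and −0.02 with the GC correction without and with the block, and FOSL2 at 0 without HCT-8 replicate 2 and up to 0.09 without CM of HCT-8 replicate 1. In CM of HCT-8/FU against HCT-8, JUNB was at 0.04 without HCT-8 replicate 2 and −0.3 without replicate 1, and JUND at −0.32 with the GC correction with or without the block. In HCT-8/FU set against cells in its CM, the GC correction gave JUNB 0.14, IER3 0.05 and IER2 0.04, or 0.14, 0.05 and 0.03 with the block. For the difference, FOSL2 was at 0.01 in the libraries under 15% and JUND at −0.51 to 0.01 with 1 library left out, the latter without CM of HCT-8 replicate 2.

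Over all genes, 259 were called lower between the CM groups, and 81 with the groups compared to 648 without CM of HCT-8 replicate 2. Lower genes were 38.1% of calls in HCT-8/FU, 27.4% with the other TMM reference and 52.6% with the GC correction. Between the CM groups they were 13.8% and 44.9% with the GC correction, and in CM of HCT-8 against HCT-8 they were 52.7% and 63.8% with DESeq2 size factors. With the GC correction 954 rather than 1878 genes were called between the CM groups and 1089 rather than 1655 in CM of HCT-8 against HCT-8. The difference between both changes passed in 2350 genes, and in 1189 without replicate 1 in CM of HCT-8/FU to 4555 with the libraries under 15%.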

Other observations

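Further genes of the pathway also differed between both changes, again as the log2 fold change between the lines minus that between the CM groups and at the adjusted p of edgeR's test alone, for which 6.42% of all genes were below zero. Among 9 further AP-1 and bZIP factors 5 were below zero and 0 above. These were ATF3 (−2.76, SE 0.188, adjusted p = 6e-07), JDP2 (−0.65, SE 0.132, adjusted p = 0.0045) and the small MAF proteins MAFF (−0.92, SE 0.15, adjusted p = 0.00095), MAFG (−0.91, SE 0.112, adjusted p = 9.9e-05) and MAFK (−0.7, SE 0.122, adjusted p = 0.0016), which lack a transactivation domain. The MAF genes lie outside the rule for named genes and were chosen after their values were seen. Among 25 other immediate early genes 7 were below zero, with PPP1R15A at −1.68 (SE 0.116, adjusted p = 6.1e-07), and 2 above. Among 9 factors of AU-rich mRNA decay 0 passed in either direction.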
